A study of Mus musculus with 20 samples.

Results

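The 10 genes described here, *Acta2*, *Tagln*, *Des*, *Pdgfrb*, *Tgfb1*, *Timp1*, *Lox*, *Loxl2*, *Dcn* and *Lum*, were the rows of the liver count table with these symbols, out of 50559 genes in all. They were chosen as genes of stellate cell activation and matrix crosslinking, and collagens were not among them. RNA was measured by bulk RNA-seq in 20 livers, 5 from each of 4 groups of mice, and all mice carried floxed *Cideb* on both chromosomes. Mice injected with AAV-TBG-GFP kept *Cideb* and are called WT, and mice injected with AAV-TBG-Cre are called KO. The TBG promoter is active in hepatocytes, so stellate cells of KO mice still carried intact *Cideb*. Either vector was combined with Western diet (WD) or with CDA-HFD, a high-fat diet that lacks choline and supplies protein as defined amino acids. The labels give 3 months of feeding for both diets, while the text of the study describes a longer feeding time for WD than for CDA-HFD in its hepatocyte KO cohorts. The strain was C57BL/6, and sex and age are not stated in the labels.

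Hepatic stellate cells lie between hepatocytes and the sinusoidal endothelium and store retinoids. In injured livers they turn into contractile, migrating cells that secrete matrix, a change driven by platelet-derived growth factor (PDGF) and by transforming growth factor beta (TGF-beta). Matrix is then stabilized by crosslinking enzymes and by inhibitors of matrix proteases, and small proteoglycans organize its fibrils.

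Reads counted on genes ranged from 11697049 to 16827147 per liver. *Cideb* was counted with 35 to 100 reads in WT livers and with 0 to 6 reads in KO livers, so no liver went against its label. Among the livers on CDA-HFD, KO liver 5 stood apart from its group. On their first principal component (61.4% of the variance) it scored -41.4, within the WT range of -63.1 to -7.24, and the other KO livers scored 42.7 to 65.5. KO liver 5 had 1 read of *Cideb*. Results on CDA-HFD are given with and without this liver. It was singled out from these same counts, so fits without it are descriptive and are no independent test of the KO effect. The stellate cell markers *Lrat*, which esterifies retinol, and *Reln* were detected in every liver, with *Reln* at 244 to 459 CPM (reads scaled to a common library size by the trimmed mean of M values, TMM). On CDA-HFD neither *Lrat* (52.7 ± 10.1 CPM in WT and 56.8 ± 21.1 in KO, SD, n = 5) nor *Reln* (391 ± 58.3 and 412 ± 32.5, SD, n = 5) passed the test of KO against WT described next (edgeR adjusted p = 0.783 and 0.692). Both were picked later from a list of 16 genes of quiescent stellate cells. Of the 15 tested, 3 were called lower and 2 higher, against 7.29% and 8.19% of all genes. Among those lower was *Ngfr*, at a log2 fold change of -0.75 (edgeR adjusted p = 0.0477).

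On CDA-HFD, 5 of the 9 members that could be tested were lower in KO than in WT livers, and none was higher. They were *Timp1* (4.55-fold), *Lox* (4.19-fold), *Acta2* (3.73-fold), *Loxl2* (1.92-fold) and *Tgfb1* (1.86-fold). Of all 17204 genes tested, 7.29% were called lower. The median log2 fold change was -0.94 over the 9 members and 0 over all genes. In *Acta2*, *Tgfb1*, *Timp1* and *Lox* every KO liver was below every WT liver, a pattern found in the same direction for 4.54% of all genes tested. Calls came from edgeR's quasi-likelihood F test on the 10 livers of a diet with Benjamini-Hochberg adjustment over all genes, at a threshold of 0.05. Whole livers were sequenced, so fewer stellate cells, less RNA per stellate cell and changes in other cells that express these genes cannot be told apart.

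**Figure D1:**
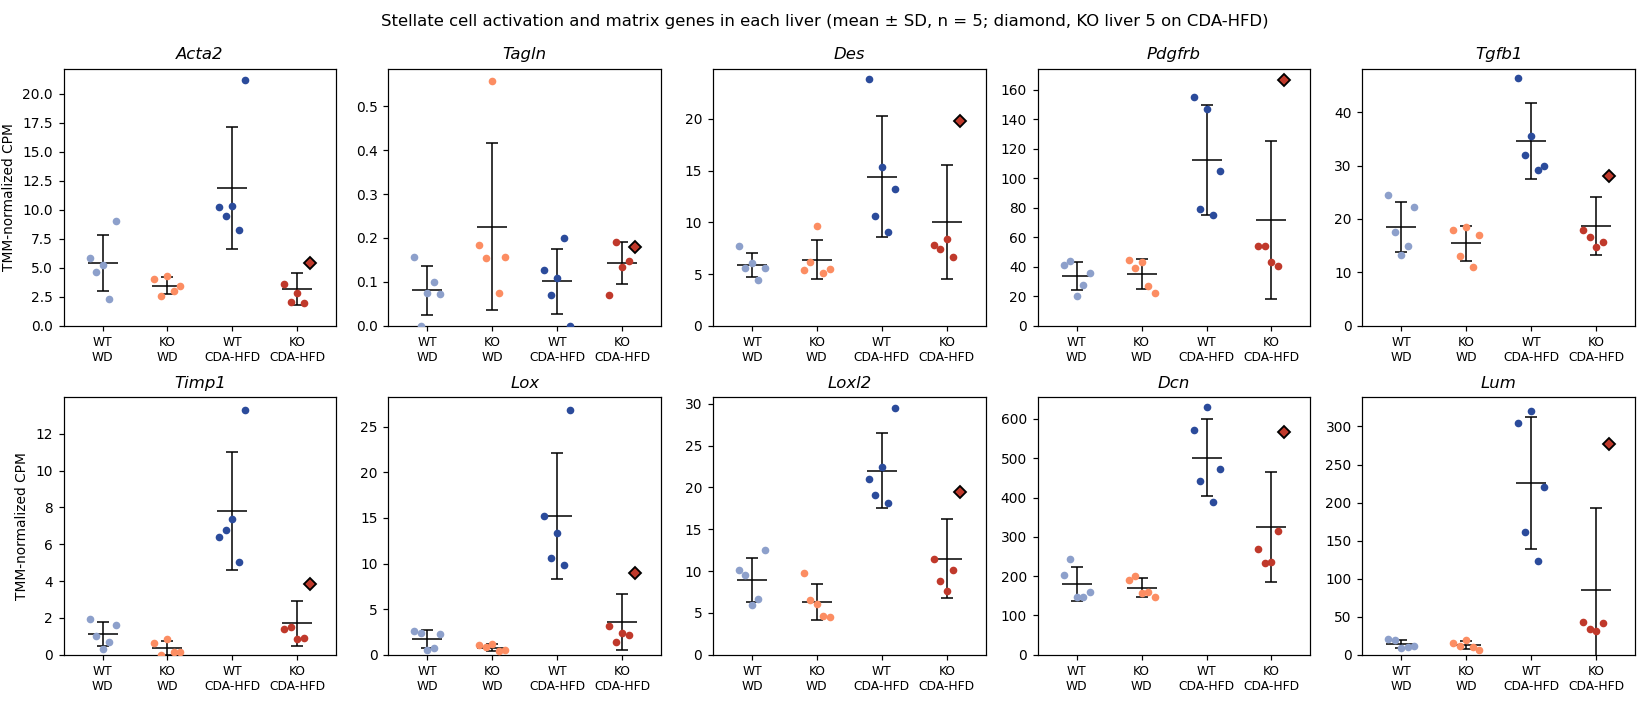
TMM-normalized CPM of the 10 members in each of the 20 livers, on linear axes from 0, with 1 panel per gene. Points are livers, horizontal marks and bars are the mean and SD of 5 livers (bars that would pass below 0 are cut there), and the diamond is KO liver 5 on CDA-HFD, which is the highest KO liver on CDA-HFD in every panel except *Tagln*.

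*Acta2* encodes alpha smooth muscle actin, the contractile protein used to recognize activated stellate cells. It lies on the minus strand of chr19:34241090-34255590 (GRCm38). On CDA-HFD it was measured at 10.2, 9.43, 10.3, 8.24 and 21.2 CPM in WT livers 1 to 5 and at 3.62, 2.09, 2.85, 1.98 and 5.39 CPM in KO livers 1 to 5. The groups did not overlap, with liver 5 the highest of either group. The log2 fold change was -1.90 (SE 0.33, edgeR adjusted p = 0.0119), and the exact two-sided permutation test of the CPM gave p = 0.00794, the smallest that 5 livers against 5 allow. It was -2.18 without KO liver 5.

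Smooth muscle actin is a textbook target of serum response factor, which binds the CArG box, a run of A and T bases flanked by C bases on one side and G bases on the other. Upstream windows of 250 bases were searched on both strands, and 4 members (*Acta2*, *Des*, *Tgfb1* and *Timp1*) had a window in the RefSeq promoter table for GRCm38.p6. No window matched the box exactly, a match that 1.47% of 32851 windows had. With 1 mismatch allowed, a setting chosen after the exact search, *Acta2* had 2 matches and the other members had 0. Of all windows, 18.6% held at least 1 such match and 2.96% at least 2. Both *Acta2* matches are shown with 10 bases on either side, from the minus strand, with the 10 letters of the match in capitals.
Acta2, chr19:34255438-34255467: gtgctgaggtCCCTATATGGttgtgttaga
Acta2, chr19:34255388-34255417: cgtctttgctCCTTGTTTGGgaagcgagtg
The first match lies 84 to 75 bases and the second 34 to 25 bases before the RefSeq start. In the GENCODE annotation the first exon of a transcript of *Acta2* runs from 34255290 to 34255590 and covers both. These are matches of letters, and no binding was measured.

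*Tagln*, which encodes the actin-binding protein transgelin, could not be used as a second contractile marker. It had 0 to 6 reads in any of the 20 livers and was removed by the low-count filter in each comparison. Its highest level was 0.558 CPM in KO liver 3 on WD. Of 1988 exon bases of *Tagln* (chr9:45929619-45936058, minus strand), 1349 are shared with exons on the other strand, 1241 of them with *Gm48529* and 108 with *Pcsk7*. Whether the counting used strand is not known. If it did not, reads on shared bases may have gone to the entry for ambiguous reads (0.8% to 1.03% per liver), and *Tagln* may be undercounted. *Gm48529* was not analysed here.

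*Des* encodes desmin, the intermediate filament protein that marks stellate cells of rodents also when they are quiescent. On CDA-HFD it was measured at 23.9, 10.6, 15.4, 9.05 and 13.2 CPM in WT livers and at 7.86, 7.47, 8.43, 6.68 and 19.8 CPM in KO livers. KO livers 1 to 4 were below every WT liver, and KO liver 5 was the second highest of the 10. The log2 fold change was -0.52 (SE 0.34, edgeR adjusted p = 0.286), and without KO liver 5 it was -0.92 (SE 0.25, adjusted p = 0.0119).

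*Pdgfrb* is the receptor through which PDGF drives stellate cell growth, and it lies on chromosome 18. It was measured at 155, 79.2, 147, 75.4 and 105 CPM in WT livers on CDA-HFD. In KO livers it was measured at 54.4, 54.1, 43.1, 40.3 and 167 CPM. KO livers 1 to 4 were below the WT range, and KO liver 5 was above every WT liver. The log2 fold change of -0.65 (SE 0.39, edgeR adjusted p = 0.257) became -1.23 (SE 0.22, adjusted p = 0.00163) without KO liver 5.

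*Tgfb1* encodes the ligand that induces matrix genes in stellate cells, and macrophages are a known source of it. Its levels on CDA-HFD were 46.4, 32.0, 35.6, 29.1 and 29.9 CPM in WT livers and 17.9, 16.6, 14.8, 15.6 and 28.1 CPM in KO livers. The groups did not overlap, although KO liver 5, at 28.1 CPM, was close to WT liver 4, at 29.1 CPM. *Tgfb1* had a log2 fold change of -0.90 (SE 0.19, edgeR adjusted p = 0.0167), and -1.09 without KO liver 5.

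*Timp1* encodes an inhibitor of matrix metalloproteinases. Its levels on CDA-HFD were 6.41, 6.76, 7.39, 5.03 and 13.3 CPM in WT livers and 1.39, 1.52, 0.863, 0.881 and 3.83 CPM in KO livers, from 12 to 64 reads in the latter. The groups did not overlap. *Timp1* had the largest log2 fold change of the 9 members, -2.19 (SE 0.42, edgeR adjusted p = 0.0136), with all 10 livers. When KO liver 5 was left out it was -2.74 (SE 0.32, adjusted p = 0.000216), beside -2.75 for *Lox*.

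*Lox* encodes lysyl oxidase, which oxidizes lysines of collagen and elastin so that the fibers crosslink. It was measured at 15.2, 10.6, 13.4, 9.85 and 26.9 CPM in WT livers on CDA-HFD and at 3.13, 1.39, 2.39, 2.20 and 8.99 CPM in KO livers. The groups did not overlap, and liver 5 was again the highest of either group. *Lox* had a log2 fold change of -2.07 (SE 0.47, edgeR adjusted p = 0.0201).

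*Loxl2*, a lysyl oxidase-like enzyme that also crosslinks collagen, was measured at 21.0, 19.1, 22.4, 18.1 and 29.5 CPM in WT livers and at 11.5, 8.79, 7.63, 10.1 and 19.5 CPM in KO livers. Only KO liver 5 reached into the WT range. The log2 fold change was -0.94 (SE 0.24, edgeR adjusted p = 0.0279) with all 10 livers and -1.22 (SE 0.17, adjusted p = 0.000396) without KO liver 5.

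Decorin (*Dcn*) and lumican (*Lum*) are small proteoglycans that bind collagen fibrils. Their genes are neighbors on the plus strand of chromosome 10, 46984 bases apart with 0 protein-coding genes between them. *Dcn* was measured at 571, 443, 630, 388 and 473 CPM in WT livers on CDA-HFD and at 270, 234, 236, 314 and 568 CPM in KO livers. *Lum* was measured at 304, 161, 321, 123 and 220 CPM in WT livers and at 42.6, 34.4, 31.4, 42.0 and 277 CPM in KO livers. KO livers 1 to 4 were below every WT liver for both genes, and KO liver 5 lay inside the WT range for both. Neither passed the edgeR test with all livers, *Dcn* at a log2 fold change of -0.63 (SE 0.25, adjusted p = 0.0972) and *Lum* at -1.41 (SE 0.62, adjusted p = 0.129). With that liver left out *Lum* was 6.01-fold lower (log2 fold change -2.59, SE 0.27, adjusted p = 0.000134) and *Dcn* 1.91-fold lower (log2 fold change -0.93, SE 0.16, adjusted p = 0.00113).

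When KO liver 5 was left out, a choice made after seeing the data, all 9 members tested were called lower on CDA-HFD. In that fit 21.8% of the 17411 genes tested were called lower. The liver split the members. For *Acta2*, *Timp1*, *Lox* and *Tgfb1* it was below every WT liver, at 45.4%, 49.3%, 59.1% and 81.2% of the WT mean. For *Loxl2*, *Des*, *Dcn* and *Lum* it lay inside the WT range, at 88.6% to 137% of the WT mean, and for *Pdgfrb* it was above the range, at 149%. WT liver 5, the highest WT liver for *Acta2*, *Timp1*, *Lox* and *Loxl2*, also bore on the count. Without it 3 members were called, *Acta2*, *Tgfb1* and *Timp1*, against 2.74% of all genes called lower in that fit, with *Lox* at an edgeR adjusted p of 0.0525 and *Loxl2* at 0.0722. Without both livers numbered 5, an alternative chosen after seeing the data, 9 were called lower, against 19.4% of all genes. In the fits without KO liver 1 and without KO liver 3, 3 were called lower, against 1.97% and 2.16% of all genes. *Acta2*, *Tgfb1* and *Timp1* passed in each of the 10 fits that left out a liver, with adjusted p-values of at most 0.0487. *Lox* passed in 7 of them and *Loxl2* in 3, those without WT liver 2, WT liver 4 or KO liver 5.

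**Figure D2:**
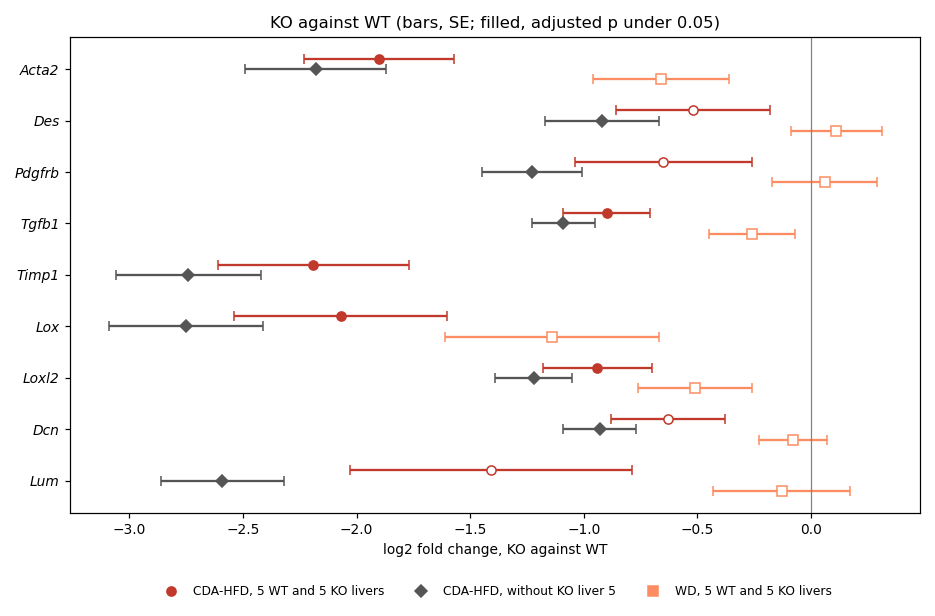
Log2 fold change of KO against WT (x axis) for 9 members, with bars for the SE and filled symbols for an adjusted p under 0.05. Circles are the 10 livers on CDA-HFD, diamonds the same fit without KO liver 5, and squares the 10 livers on WD, where *Timp1* was not tested. All 9 diamonds are filled, 5 of the circles are, and no square is.

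Ratios of members within a liver are independent of the scaling between libraries. The ratios described here were chosen after the values were seen and are given without a test, as CPM of the first gene in percent of the second, which also carries the difference in length between the genes. On CDA-HFD, *Timp1* was 1.12% to 2.81% of *Dcn* in WT livers and 0.280% to 0.675% in KO livers, and KO liver 5, with 0.675%, stayed below every WT liver. *Lox* was 9.09% to 25.6% of *Pdgfrb* in WT livers and 2.57% to 5.75% in KO livers. KO liver 5 had 5.37%, among the other KO livers. *Acta2* was 42.7% to 161% of *Des* in WT livers and 27.2% to 46.0% in KO livers, with KO liver 1 above WT liver 1, and KO liver 5 had the lowest value of all 20 livers. *Lum* to *Dcn* behaved otherwise. It was 31.7% to 53.2% in WT livers and 13.3% to 15.8% in KO livers 1 to 4, and KO liver 5 had 48.8%. In that liver *Des*, *Dcn* and *Lum* lay inside the WT range and *Pdgfrb* above it, while *Timp1* relative to *Dcn*, *Lox* relative to *Pdgfrb* and *Acta2* relative to *Des* were below those of every WT liver.

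**Figure D3:**
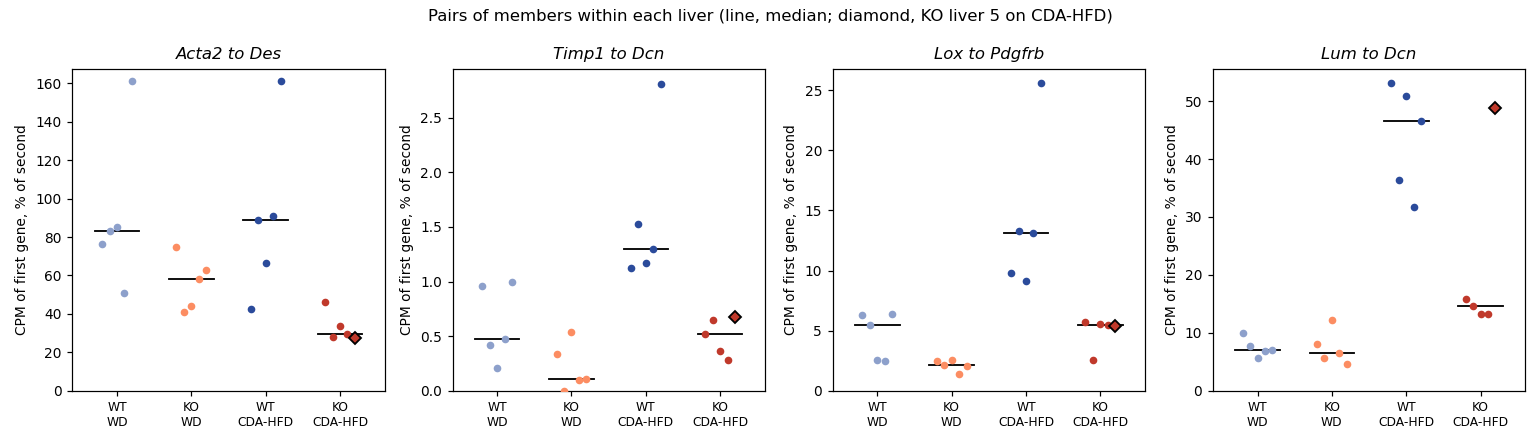
CPM of a member in percent of another member of the same liver, for 4 pairs, on linear axes from 0. Points are livers, lines are group medians and the diamond is KO liver 5 on CDA-HFD. It lies with the KO livers for *Timp1* to *Dcn* and *Lox* to *Pdgfrb* and with the WT livers for *Lum* to *Dcn*.

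On WD, 0 of the 8 members tested passed in edgeR, 2 of them (*Acta2* and *Lox*) had an unadjusted p under 0.05, and DESeq2 called 0 as well. Of the 15848 genes tested on this diet, 1702 had an unadjusted p under 0.05 in edgeR, and 0.0757% were called in either direction. In 0 members was every KO liver below every WT liver, against 1.09% of the genes tested. The median log2 fold change of the members was -0.19. *Acta2* was measured at 5.87, 4.64, 5.21, 2.28 and 9.03 CPM in WT livers and at 4.04, 2.56, 4.28, 2.96 and 3.44 CPM in KO livers. The KO livers lay inside the WT range, and the log2 fold change was -0.66 (SE 0.30, edgeR adjusted p = 0.454). *Lox* was measured at 2.58, 2.40, 0.529, 0.693 and 2.26 CPM in WT livers and at 1.10, 0.854, 1.12, 0.379 and 0.469 CPM in KO livers. WT livers 3 and 4 were as low as KO livers, and the log2 fold change was -1.14 (SE 0.47, edgeR adjusted p = 0.427).

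*Timp1* was removed by the low-count filter on WD. It had 25, 12, 4, 7 and 22 reads in WT livers and 7, 0, 9, 2 and 2 reads in KO livers, where the liver with 0 reads allows a level of up to 0.233 CPM (3 reads). The mean level was 1.12 ± 0.669 CPM for WT and 0.358 ± 0.361 CPM for KO (SD, n = 5). The groups overlapped, and the exact two-sided permutation test gave p = 0.0476, without adjustment for the 40 such tests of 10 members in 4 comparisons. *Loxl2* fell short of the threshold at a log2 fold change of -0.51 (SE 0.25, edgeR adjusted p = 0.492). The other 5 members tested, *Des*, *Pdgfrb*, *Tgfb1*, *Dcn* and *Lum*, had log2 fold changes between -0.26 and 0.11.

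In WT livers, CDA-HFD came with higher levels of all 9 members tested, against 25.9% of the 16726 genes tested that were called higher. The livers are those of the KO comparisons, here and in the diet comparison of KO livers, so these values are not independent of them, and diet and feeding time cannot be told apart where they differed. *Lum* rose 16.3-fold, from 13.7 ± 5.44 to 226 ± 86.6 CPM (SD, n = 5), with a log2 fold change of 4.03 (SE 0.34, edgeR adjusted p = 1.02e-05). *Lox* rose 8.82-fold, from 1.69 ± 0.996 to 15.2 ± 6.91 CPM (SD, n = 5). *Timp1* rose 6.84-fold, from 1.12 ± 0.669 to 7.77 ± 3.20 CPM (SD, n = 5). It had 4 to 25 reads in WT livers on WD and met the low-count filter here through its 75 to 280 reads on CDA-HFD. *Pdgfrb* (3.31-fold), *Dcn* (2.77-fold), *Loxl2* (2.45-fold), *Des* (2.43-fold), *Acta2* (2.17-fold) and *Tgfb1* (1.86-fold) followed. In 8 of them every liver on CDA-HFD was above every liver on WD, against 19.3% of all genes tested. *Acta2* was the exception, since WT liver 5 on WD, at 9.03 CPM, was above WT liver 4 on CDA-HFD, at 8.24 CPM.

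In KO livers, 4 of the 9 members were higher on CDA-HFD than on WD, against 9.19% of the 16387 genes tested. They were *Lum* (log2 fold change 2.78, SE 0.65), *Timp1* (2.31, SE 0.68), *Lox* (2.23, SE 0.54) and *Dcn* (0.93, SE 0.24), with edgeR adjusted p-values of 0.0168, 0.0392, 0.0188 and 0.0244. In these 4 the diets did not overlap, against 8.09% of all genes tested. *Timp1* had 0 to 9 reads in KO livers on WD, where the low-count filter removed it. It was tested here because of its 12 to 64 reads on CDA-HFD, so its call and lack of overlap depend on that filter. *Acta2* was at 3.46 ± 0.719 CPM on WD and 3.19 ± 1.40 CPM on CDA-HFD in KO livers (SD, n = 5), a log2 fold change of -0.11 (SE 0.29, edgeR adjusted p = 0.828) that changed sign to 0.18 when library size alone was used for scaling. Without KO liver 5 on CDA-HFD, 3 members were called higher, *Lum*, *Lox* and *Dcn*, against 9.03% of all genes, and the log2 fold change of *Lum* was 1.57 (SE 0.24, adjusted p = 0.00134).

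**Figure D4:**
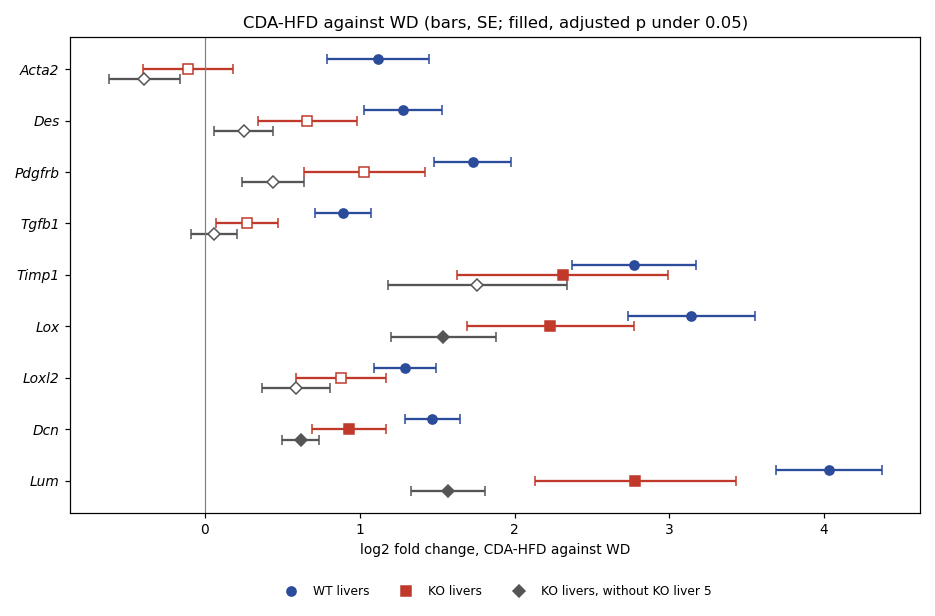
Log2 fold change of CDA-HFD against WD (x axis) for 9 members, with bars for the SE and filled symbols for an adjusted p under 0.05. Circles are WT livers, squares KO livers and diamonds KO livers without KO liver 5 on CDA-HFD. All 9 circles, 4 squares and 3 diamonds are filled.

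Whether the difference between KO and WT itself differed between the diets was tested as an interaction on all 20 livers. With edgeR 0 of 9 members passed, 2 had an unadjusted p under 0.05, DESeq2 called 0, and 0.556% of 17804 genes were called. Of these 17804 genes, 2736 had an unadjusted p under 0.05 in edgeR. All 9 estimates of the members were below 0, as were those of 8501 of the 17804 genes. The 9 estimates come from the same livers and are not independent. The members with an unadjusted p under 0.05 were *Acta2*, at -1.23 (SE 0.47, edgeR adjusted p = 0.223), and *Tgfb1*, at -0.64 (SE 0.28, adjusted p = 0.292). The estimates of *Timp1* (-0.46, SE 0.89) and *Lox* (-0.92, SE 0.75) were wide, with few reads on WD. Without KO liver 5 on CDA-HFD, 5 members were called, against 11.9% of all genes. They were *Lum* (-2.46, SE 0.43, adjusted p = 0.00308), *Pdgfrb* (-1.29, SE 0.35, adjusted p = 0.0230), *Dcn* (-0.85, SE 0.23, adjusted p = 0.0234), *Acta2* (-1.51, SE 0.45, adjusted p = 0.0365) and *Tgfb1* (-0.83, SE 0.25, adjusted p = 0.0389).

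Per kilobase of exon, *Lum* (92.2 ± 35.4 CPM per kilobase, SD, n = 5) and *Dcn* (85.8 ± 16.8) were the most abundant members in WT livers on CDA-HFD and did not differ beyond their spread. *Pdgfrb* (20.5 ± 6.81) came next. *Timp1* (8.76 ± 3.61), *Tgfb1* (6.86 ± 1.41) and *Acta2* (5.41 ± 2.41) were lower and within each other's spread, and so were *Loxl2* (4.08 ± 0.836), *Des* (3.85 ± 1.55) and *Lox* (3.18 ± 1.45). In WT livers on WD the order was led by *Dcn*, at 30.8 ± 7.28 CPM per kilobase, with *Pdgfrb* (6.16 ± 1.75) and *Lum* (5.61 ± 2.22) alike and *Lox* (0.354 ± 0.208) the lowest of the 9. The group means of *Tagln* were at most 0.114 CPM per kilobase.

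The genes whose levels followed those of a member most closely over the 20 livers were found by the root mean square difference of log2 CPM, each centred on its own mean, among the 12014 genes that averaged a log2 CPM of 1 or more. The livers share diet and vector, so a small difference only says that the patterns are alike. *Pdgfrb* was closest to *Ptprs*, a receptor-type phosphatase (0.148, where *Pdgfrb* itself varied with an SD of 0.893), and *Tgfb1* to *Pea15a* (0.133, SD 0.548). *Dcn* was closest to *Sgcb*, a sarcoglycan (0.160, SD 0.727), *Des* to *Unc5a* (0.198, SD 0.660) and *Loxl2* to *Lrrc8b* (0.198, SD 0.787). *Lum* was closest to *Svep1* (0.355, SD 1.90), *Lox* to *Emp1* (0.413, SD 1.71), *Acta2* to the alarmin gene *Il33* (0.402, SD 0.894) and *Timp1* to *Vcan* (0.548, SD 1.76). On CDA-HFD *Ptprs* was at 60.6 ± 15.9 CPM in WT livers and 39.1 ± 26.1 in KO livers and *Il33* at 6.37 ± 1.15 and 2.64 ± 1.39 (SD, n = 5).

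The pathways around the members were described with 8 lists that hold 139 further genes. Of all 17204 genes tested on CDA-HFD, 7.29% were called lower in KO livers and 8.19% higher, and the list counts stand beside these shares. On CDA-HFD, of 25 TGF-beta pathway genes tested, 5 fell and 0 rose in KO livers, with a median log2 fold change of -0.51. In this list DESeq2 called 9 lower and 1 higher. *Ccn2*, connective tissue growth factor, fell 2.36-fold, from 62.4 ± 18.2 to 26.4 ± 13.1 CPM (SD, n = 5, edgeR adjusted p = 0.0280), and *Tgfbi* 1.43-fold (adjusted p = 0.0350). Of 6 further PDGF genes, 1 fell, the ligand gene *Pdgfa* (1.33-fold, adjusted p = 0.0372). The ligand genes *Pdgfb* and *Pdgfd* had log2 fold changes of -0.83 (SE 0.33) and -0.85 (SE 0.35) and did not pass.

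Against 7.29% of all genes lower and 8.19% higher, 6 of 15 contractile genes and serum response factor targets tested fell and 0 rose. Among them were *Actn1*, which crosslinks actin (1.60-fold, edgeR adjusted p = 0.0132), *Tpm1*, a tropomyosin (1.58-fold, adjusted p = 0.0177), and *Myl9*, a myosin light chain (2.15-fold, adjusted p = 0.0302). Of 20 matrix proteases and inhibitors tested, 7 fell and 0 rose in edgeR, while DESeq2 called 9 lower and 2 higher. The collagenase gene *Mmp13* fell 3.83-fold, from 5.86 ± 1.60 to 1.53 ± 0.280 CPM (SD, n = 5, edgeR adjusted p = 0.00322), the urokinase gene *Plau* 3.11-fold and the gelatinase gene *Mmp9* 3.28-fold. The members of this list that fell thus included enzymes that degrade matrix, beside the inhibitor *Timp1* described above.

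Of 18 collagen crosslinking and processing enzymes tested, 1 fell and 2 rose, close to the shares of all genes called lower (7.29%) and higher (8.19%). *Tgm2*, a transglutaminase, fell 1.36-fold, from 311 ± 21.4 to 229 ± 35.6 CPM (SD, n = 5, edgeR adjusted p = 0.0272). *Plod1*, a lysyl hydroxylase, rose 1.29-fold (adjusted p = 0.0138), and *Bmp1*, which trims procollagen and prolysyl oxidase, rose 1.64-fold, from 77.6 ± 15.3 to 128 ± 28.0 CPM (SD, n = 5, edgeR adjusted p = 0.0256). Of 22 non-collagen matrix glycoproteins tested, 3 fell and 0 rose: *Vcan*, versican (3.59-fold), *Tnc*, tenascin C (2.94-fold), and *Postn*, periostin (1.81-fold). Of 7 further small proteoglycans, 0 passed in edgeR, 1 had an unadjusted p under 0.05, and DESeq2 called 0. An unadjusted p under 0.05 was found in edgeR for 6076 of all 17204 genes tested. *Bgn*, biglycan, was the nearest at a log2 fold change of -0.57 (SE 0.23, adjusted p = 0.111), followed by *Prelp* (-0.22, SE 0.13) and *Fmod* (-0.84, SE 0.56).

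Of 15 genes tested from the list made for quiescent stellate cells, 3 fell and 2 rose on CDA-HFD, against 7.29% and 8.19% of all genes. Those that fell were *Hgf*, *Ngfr* and *Nes*. *Hgf*, hepatocyte growth factor, fell 1.85-fold, from 120 ± 22.6 to 64.9 ± 20.9 CPM (SD, n = 5, edgeR adjusted p = 0.0207). *Ecm1* rose 1.61-fold, from 64.9 ± 6.46 to 105 ± 12.0 CPM (SD, n = 5, edgeR adjusted p = 0.00821), and *Vipr1* 1.81-fold (adjusted p = 0.0153). Without KO liver 5, 21.8% of the 17411 genes tested were called lower and 3407 genes were called higher. In that fit the numbers that fell were 16 of 25 in the TGF-beta list, 5 of 6 in the PDGF list, 10 of 15 in the contractile list and 17 of 20 in the protease list. They were 21 of 22 in the glycoprotein list, 8 of 18 in the crosslinking list, 4 of 7 in the proteoglycan list and 6 of 15 in the quiescent list, and 3 genes each rose in the crosslinking and quiescent lists and 1 each in the TGF-beta, protease and glycoprotein lists.

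The counts with all 10 livers also changed when a liver other than KO liver 5 was left out. Over those 9 fits, between 347 and 1174 genes in all were called lower. The number that fell was 1 to 5 in the TGF-beta list (1 without WT liver 1, 3 or 5 or any of KO livers 1 to 4), 1 to 6 in the contractile list (1 without KO liver 3) and 2 to 7 in the protease list (2 without KO liver 1). It was 2 to 3 in the glycoprotein list, and 2 without WT liver 3 or 5 or KO liver 1, 2 or 3. In the PDGF list it was 0 to 1, and 0 except without WT liver 4. The quiescent list had 0 to 2 genes that fell (0 without WT liver 3 or KO liver 1 or 3) and 2 that rose, and the crosslinking list 0 to 2 that fell and 1 to 2 that rose (0 and 1 without WT liver 1, 3 or 5 or KO liver 1, 2 or 3). Among the genes that passed, *Ngfr* and *Nes* not counted, 18 were named above with these lists. Of these, 8 passed in each of the 10 fits without a liver, *Actn1*, *Mmp13*, *Plau*, *Plod1*, *Vcan*, *Postn*, *Ecm1* and *Vipr1*. The other 10 lost the call in at least 1 of them, with adjusted p-values of up to 0.0930.

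**Figure D5:**
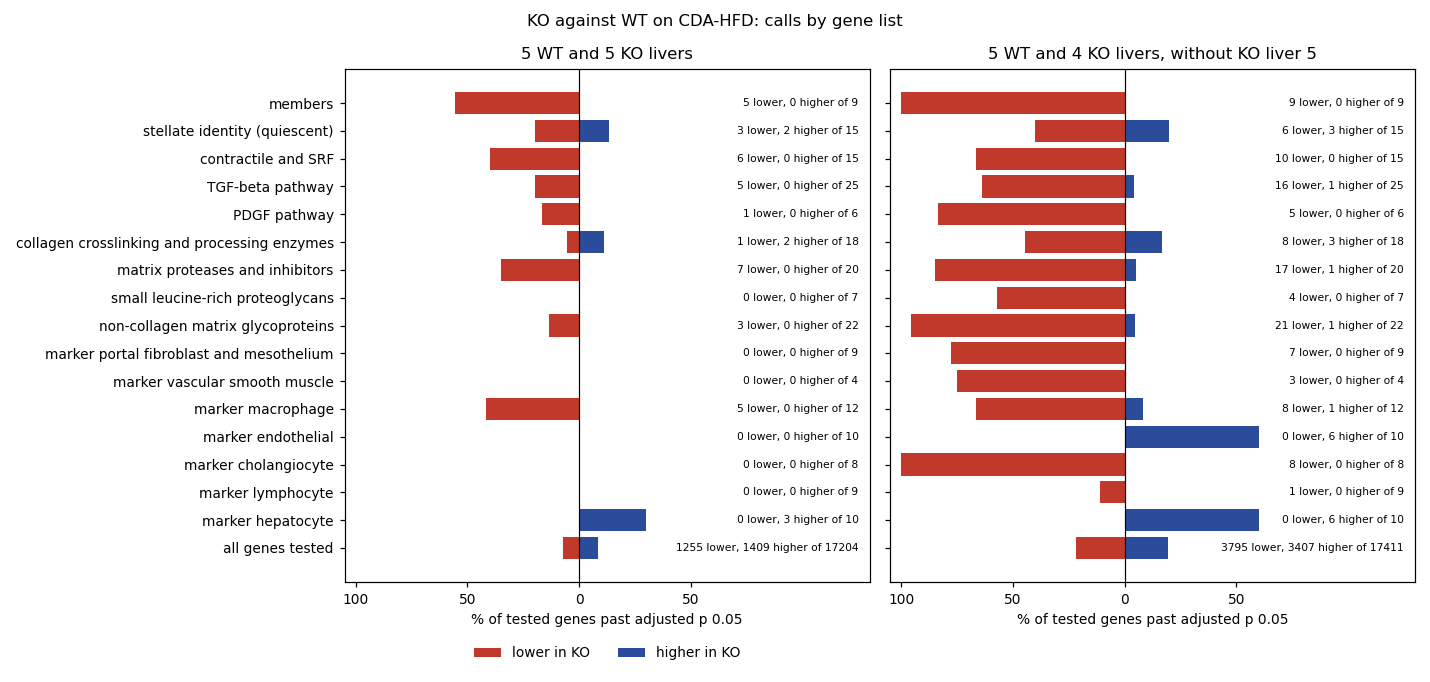
Percent of the tested genes of each list called lower (left of 0) or higher (right of 0) in KO than in WT livers on CDA-HFD, with the counts beside each bar. The left panel holds all 10 livers and the right panel omits KO liver 5. The number of members called lower goes from 5 to 9 of 9.

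On WD, 0 genes of the 8 lists passed in edgeR, with 0 to 5 genes per list at an unadjusted p under 0.05, while DESeq2 called 1 contractile and 1 TGF-beta gene lower. On this diet 1702 of all 15848 genes tested had an unadjusted p under 0.05 in edgeR. The gene nearest to the threshold in the contractile list was *Cald1*, caldesmon (285 ± 17.4 CPM in WT livers and 243 ± 6.55 in KO livers, SD, n = 5, edgeR adjusted p = 0.289). Those of the other lists reported here were *Postn* (adjusted p = 0.314), *Pcolce2* and *Omd* (both 0.319), *Vipr1* (0.411), *Adamts4* (0.444) and *Pdgfrl* (0.835).

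In the diet comparison of WT livers, 17 of 25 TGF-beta genes, 6 of 6 PDGF genes, 16 of 20 proteases and inhibitors, 19 of 22 glycoproteins and 6 of 7 small proteoglycans rose, and 1 gene fell in each of the last 3 lists. So did 8 of 15 contractile genes, 9 of 18 crosslinking enzymes and 7 of 15 quiescent stellate genes, while 1, 3 and 3 genes of these lists fell. In this comparison 25.9% of the 16726 genes tested were called higher, and 4207 genes were called lower. The leading genes were *Itgb8*, an integrin subunit that activates TGF-beta (8.24-fold), *Dpt*, dermatopontin (8.26-fold), *Adamts5* (6.84-fold), *Pdgfd* (4.58-fold), *Plod2*, a lysyl hydroxylase (4.47-fold), *Bgn* (3.50-fold), *Vim*, vimentin (3.15-fold), and *Hgf* (3.13-fold).

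On CDA-HFD some marker sums of other liver cells were lower in KO livers 1 to 4 than in any WT liver. Those of hepatocytes and endothelium were higher, and those of lymphocytes overlapped. On CDA-HFD the summed level of 12 macrophage markers was 1850 to 3800 CPM in WT livers, 641 to 801 CPM in KO livers 1 to 4 and 2180 CPM in KO liver 5. Of the 12, 5 were called lower, against 7.29% of all genes. The sum of 9 cholangiocyte markers was 489 to 981 CPM in WT livers, 123 to 262 CPM in KO livers 1 to 4 and 838 CPM in KO liver 5. The sum of 11 markers of portal fibroblasts and mesothelium was 47.7 to 128, 25.7 to 34.2 and 121 CPM, and that of 10 markers of vascular smooth muscle 24.5 to 33.2, 16.7 to 18.4 and 30.7 CPM. The cholangiocyte, fibroblast and smooth muscle lists had 0 genes called in edgeR, with 3, 1 and 0 at an unadjusted p under 0.05, and DESeq2 called 2, 1 and 0 lower. Of all 17204 genes tested, 6076 had an unadjusted p under 0.05 in edgeR. Without KO liver 5 the macrophage, cholangiocyte, fibroblast and smooth muscle lists had 8 of 12, 8 of 8, 7 of 9 and 3 of 4 tested genes called lower, against 21.8% of all genes. Over the 9 fits that left out another liver the macrophage list had 0 to 3 genes called lower, with 0 without WT liver 3 or KO liver 1, 2 or 3, and the other 3 lists had 0.

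The sum of 10 hepatocyte markers was 32800 to 71100 CPM in WT livers, 73000 to 105000 CPM in KO livers 1 to 4 and 37300 CPM in KO liver 5, with 3 genes called higher, against 8.19% of all genes. The sum of 10 endothelial markers was 657 to 754, 874 to 978 and 628 CPM, and that of 10 lymphocyte markers 12.8 to 23.7, 10.4 to 16.8 and 31.7 CPM, with 0 genes called in either list, 4 and 0 at an unadjusted p under 0.05, and 2 and 0 called higher by DESeq2. An unadjusted p under 0.05 was found in edgeR for 6076 of all 17204 genes tested. Without KO liver 5, 6 of 10 hepatocyte and 6 of 10 endothelial markers were called higher and 1 of 9 lymphocyte markers lower. Of all 17411 genes tested in that fit, 3407 were called higher and 21.8% lower. The sum of 16 quiescent stellate markers was 820 to 1140 CPM in WT livers and 877 to 1120 CPM in KO livers. Of these marker genes, 1 (*Trbc2*) had no read in any liver. The part of these cell types in the levels of the members was not tested.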

How the data were processed

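RNA was sequenced from 20 mouse livers in 4 groups of 5, taken from the sample labels. The authors counted reads per gene and deposited raw counts, with mm10 named as the genome build in the submitters' processing notes. The aligner and counting program are not given in the sources used here. The study's methods name a Nugen Ovation kit and the labels a directional NEBNext kit, so the use of strand is unknown. Entries for unassigned reads were left out, among them reads on no feature (20.7% to 28.8% per liver) and reads aligned to several places (18.0% to 28.7%).

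The tests ran in edgeR 4.0.16 under R 4.3.3 (filterByExpr, TMM, quasi-likelihood F test, Benjamini-Hochberg adjustment over all genes, threshold 0.05) on the 10 livers of each comparison, and the interaction on all 20. The SE was derived from the log2 fold change and F. Levels are CPM on 1 TMM scale over 20 livers. An exact two-sided permutation test (252 splits) was added for single members. Log2 CPM used a prior count of 2. DESeq2 1.42.0, other scalings and filters, a fit of all livers, a replicate block and leaving out each liver were alternatives. The livers of a group were not copies, since pairs differed by 6.94 to 124 times sampling noise, and p-values cover the spread between these mice. Intervals and floors of counts cover counting error only. The code was tested on simulated data.

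Positions and exon lengths came from GENCODE M21 (GRCm38). Named genes were the members, *Cideb*, per list the 3 genes with the smallest p on CDA-HFD and the 1 with the smallest on WD and between diets in WT, and the gene most like each member, and 1 gene that the rule named is not reported here. *Lrat*, *Reln*, *Colec11*, *Ngfr*, *Nes* and the ratios were picked later. Members, lists and rules were chosen with earlier results of these data known.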

Additional observations from a re-analysis of the deposited data

Results flagged for a closer look

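A member reached at least 10 reads in 35 groups of 5 livers. These groups hold the same livers for different members, so they are not independent, and the 1.75 that chance gives assumes that they are. In 10 of them a liver was farther from its nearest neighbor, relative to the group's range, than Dixon's 95% critical value of 0.71. In KO livers on CDA-HFD the liver was KO liver 5 each time, with a gap of 0.955 of the range for *Lum* (277 CPM, others 31.4 to 42.6), 0.889 for *Pdgfrb* (167 CPM, others 40.3 to 54.4), 0.867 for *Des* (19.8 CPM, others 6.68 to 8.43), 0.779 for *Timp1* (3.83 CPM, others 0.863 to 1.52), 0.771 for *Lox* (8.99 CPM, others 1.39 to 3.13), 0.763 for *Tgfb1* (28.1 CPM, others 14.8 to 17.9) and 0.759 for *Dcn* (568 CPM, others 234 to 314). In WT livers on CDA-HFD it was WT liver 5, with 0.845 for *Acta2* (21.2 CPM, others 8.24 to 10.3) and 0.714 for *Timp1* (13.3 CPM, others 5.03 to 7.39). On WD it was KO liver 3, with 0.754 for *Des* (9.67 CPM, others 5.08 to 6.21). The cause was not tested in any of these livers.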

How the results depend on the processing

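The count of members called lower in KO livers on CDA-HFD was 5, and 4 to 6 with other scalings, filters, DESeq2, all 20 livers in 1 fit or a replicate block. It was 3 to 9 when a liver was left out, while 347 to 3795 of all genes were called lower in those fits. Without both livers numbered 5 it was 9, against 3306 of all genes. On WD it was 0 in every fit run. For CDA-HFD against WD it was 9 in WT livers (9 in each fit without a liver, 7 with at least 10 counts in every library, which tests fewer members). In KO livers it was 4, with 2 to 5 without a liver and 2 with at least 10 counts in every library, which again tests fewer members. The interaction had 0, with 0 to 5 without a liver. Livers with the same number did not clearly deviate together (correlations of deviations between -0.392 and 0.374 over the 4 comparisons, with 2 to 4 of 10 livers closest to their own number). With 5 livers per group this check cannot exclude a pairing, so whether the numbers pair the livers is not known. With the replicate block the KO diet count was 1, and the other counts were 0 to 9 and stayed within 1.5 times their values without it. Members with an exact permutation p under 0.05 numbered 5 on CDA-HFD (5 to 9 without a liver), 1 on WD (0 to 2, and 0 with library size only), 9 for diet in WT (9) and 5 for diet in KO livers (3 to 6). The permutation test was run for the members only, so these counts have no share of all genes to stand beside.

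Directions turned for values near 0. The log2 fold change of *Acta2* between diets in KO livers was 0.177 with library size only and ranged from -0.393 to 0.022 with a liver left out, above 0 without KO liver 2 or 4 on CDA-HFD. On WD, leaving out a liver gave -0.331 to 0.053 for *Lum*, -0.154 to 0.056 for *Dcn*, -0.085 to 0.178 for *Pdgfrb*, -0.094 to 0.220 for *Des* and -0.006 to 0.323 for *Pdgfrl*. The interaction of *Timp1* ranged from -1.011 to 0.105, above 0 without KO liver 3 on WD. The cause was not tested. Scaling by library size only moved the median log2 fold change of all genes to -0.19 (KO on CDA-HFD), 0.42 (diet in WT), 0.25 (diet in KO) and -0.15 (interaction). Depth limits *Tagln* in all groups and *Timp1* and *Lox* on WD.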

Other observations

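The remaining ratios between members, also chosen after the values were seen and given without a test, overlapped between WT and KO livers on CDA-HFD. *Loxl2* was 13.5% to 28.0% of *Pdgfrb* in WT livers and 11.7% to 25.0% in KO livers. *Tgfb1* was 24.1% to 40.4% of *Pdgfrb* in WT livers and 16.8% to 38.8% in KO livers, and the lowest value of either ratio was that of KO liver 5. *Pdgfrb* was 17.9% to 27.2% of *Dcn* in WT livers and 12.8% to 29.4% in KO livers, with KO liver 5 the highest. On WD, *Lox* was 2.48% to 6.37% of *Pdgfrb* in WT livers and 1.41% to 2.59% in KO livers, an overlap of WT livers 3 and 4 with KO liver 3 alone.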
